A study of Mus musculus with 9 samples.

Results

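The genes examined here build and power the sperm tail: 44 genes for axonemal dyneins, tektins, outer dense fibres and the fibrous sheath, the central apparatus, the CatSper calcium channel, sperm glycolysis and tail assembly. They were chosen by name, out of 49603 annotated genes, and every deposited interval that touched a member or its 2 kb flanks was collected. The samples are germ cells taken from the testis of wild-type mice of the ICR strain on postnatal day 35. After cross-linking and sonication, chromatin bound by the long noncoding RNA Gm4665 was captured with biotinylated probes (3 replicates), and it was sequenced beside a LacZ sample set (3 replicates), LacZ being a bacterial gene that mice lack and a usual target of control probes, and input (3 samples). All 9 samples share strain, tissue and age, and the labels name no treatment or altered allele. Only the titles tell the groups apart, since the protocol text is the same for all; they call the captured RNA LncRNA-20, which the protocol calls Gm4665. Separate animals are not named for the replicates, so the spread between them may be technical. Intervals and values are those of 2 deposited peak lists, 38711 Gm4665 and 9448 LacZ peaks on the standard chromosomes, each peak with a fold enrichment over input in each replicate. The lists were normalized separately, so folds are compared within a list only. The number of reads behind each fold is unknown.

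A sperm tail is a long motile cilium. Its axoneme carries dynein motors in outer and inner arms on ring-forming doublet microtubules, which slide against each other, while a central pair of microtubules and its projections regulate the beat. Around the axoneme lie the outer dense fibres and, in the principal piece, the fibrous sheath, to which glycolytic enzymes are bound, and CatSper channels in the membrane admit the calcium that drives hyperactivated swimming. Many of these genes are switched on during late meiosis and in haploid spermatids, cell stages present in testes at this age. The stated purpose of the series was to find regulatory regions contacted by Gm4665, so the position of each peak within a gene is described beside its fold.

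Peaks of the Gm4665 list lay in 31 of the 44 genes (70.5%), with 103 peaks in all. Over all annotated genes 27.1% held such a peak, and over protein-coding genes 39.3% did. The LacZ list had 25 peaks in 16 members (36.4%), against 10.6% of all genes and 16.9% of protein-coding genes. Both shares were above their backgrounds. The members are also long, with a median of 41.1 kb against 17.2 kb for protein-coding genes, and a range from 1.295 kb (Spem1) to 898 kb (Spag16). Per megabase of gene with flanks, the members held 19.8 Gm4665 peaks against 16.3 over all genes, a ratio of 1.21 (95% exact binomial interval 0.988 to 1.47, counting error only). For LacZ peaks the densities were 4.80 and 4.42, a ratio of 1.09 (0.703 to 1.601). The Gm4665 ratio depended on the longest genes: it was 1.31 without Spag16 and 1.58 over genes under 100 kb, where the LacZ ratios were 1.21 and 1.25 (both alternatives chosen after values had been seen). The ratio under 100 kb did not hold for the shortest genes. Members under 20 kb held 15.8 Gm4665 peaks per megabase, against 18.9 for protein-coding genes of that length, and those from 20 to 100 kb held 30.2, against 17.3.

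Gene length ordered the members in both lists. Of the 15 members over 100 kb, 15 held a Gm4665 peak, where 91.4% of protein-coding genes of that length did, and 11 held a LacZ peak (73.3%, against 56.8%). Of the 14 members under 20 kb, 3 held a Gm4665 peak (21.4%, against 19.1%), namely Tekt1, Meig1 and Catsper1, and 0 held a LacZ peak (against 6.29%). The 15 members from 20 to 100 kb were the class farthest from its background: 13 held a Gm4665 peak (86.7%, against 54.1%), at 30.2 peaks per megabase against 17.3. In the same class 5 held a LacZ peak (33.3%, against 20.5%), at 7.55 peaks per megabase against 4.97, so the control list was also above its background there. Length classes were set after values had been seen and no test was made of them. Across the 44 members, Spearman's rho between gene length and number of peaks was 0.88 for the Gm4665 list and 0.67 for the LacZ list. Over protein-coding genes it was 0.59 and 0.39, so peak number rose with length there too.

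**Figure D1:**
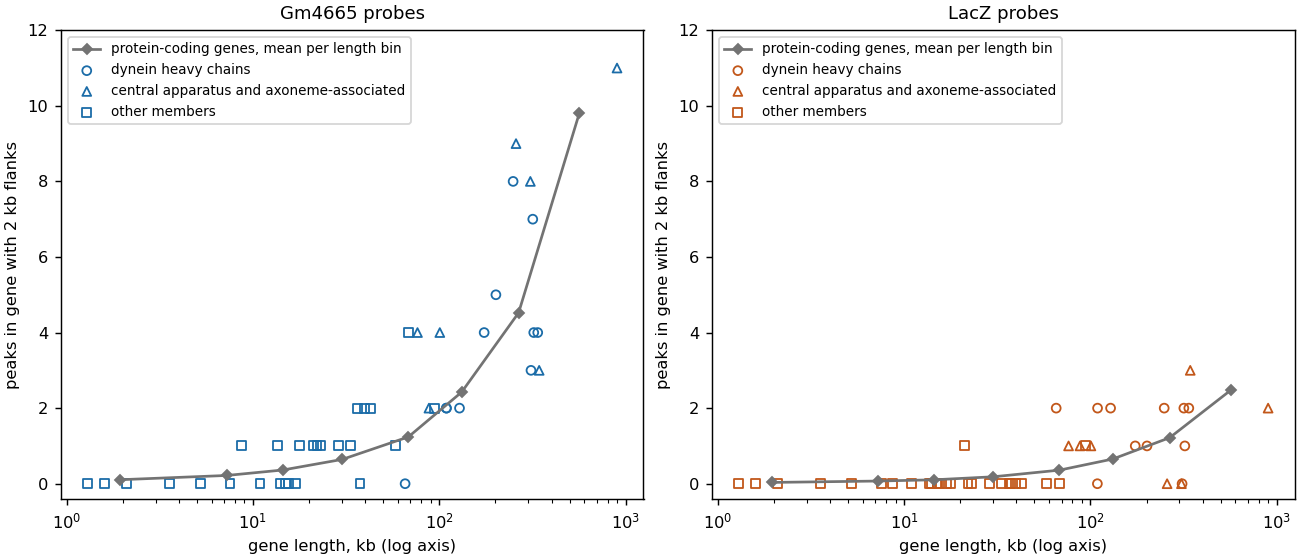
Number of peaks in each member with its 2 kb flanks against gene length (log axis), for Gm4665 probes on the left and LacZ probes on the right; the grey line joins means over protein-coding genes in bins of length. Members with many peaks are long ones, up to 11 Gm4665 peaks at Spag16, and shorter members lie at 0 to 2 peaks with few exceptions such as Dnai1 and Spag6l with 4 each.

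Member peaks were of ordinary strength within the Gm4665 list. Their median mean fold, the mean being over the 3 replicates, was 9.87, against 9.99 over all Gm4665 peaks, and the middle of the distribution ran from 7.06 to 16.6, against 7.24 to 15.9. By replicate, the median fold of member peaks was 1.05, 0.881 and 0.920 times that of the whole list, so replicate 1 lay above its list and replicates 2 and 3 below. Of the 103 peaks, 6 were among the strongest 5% of the list and 1 among the strongest 1%. In 35 of the 103 (34.0%) the fold exceeded the list's median in every replicate, as it did in 37.3% of all Gm4665 peaks. LacZ peaks at members had a median mean fold of 11.7 against 14.1 over the LacZ list, and their replicate ratios were 0.898, 0.903 and 0.822. With 25 LacZ peaks, the 3 above the list's upper quartile of 19.6 were those at Ift88, Hydin and Dnah10.

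**Figure D2:**
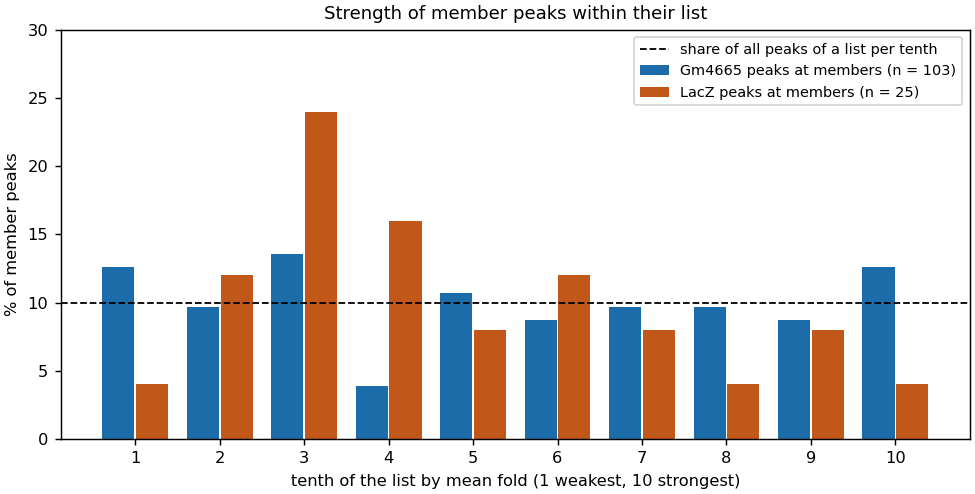
Share of member peaks (vertical axis, %) in each of 10 equal bins of their own list, ranked by mean fold from weakest (1) to strongest (10), for 103 Gm4665 and 25 LacZ peaks; the dashed line marks the 10% that each bin of a whole list holds. Gm4665 peaks at members run from 3.88% to 13.6% per bin, while LacZ peaks are most frequent in the weaker bins, with 24% in bin 3.

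The 11 dynein heavy chain genes encode the large motor subunits of the arms. The Gm4665 list had 41 peaks in 10 of them, all inside the genes and none within 2 kb of a gene end, and the LacZ list had 15 peaks in 9. Of protein-coding genes over 100 kb, the class of all but Dnah1, 91.4% held a Gm4665 peak and 56.8% a LacZ peak. Over protein-coding genes of any length, 14.2% had a Gm4665 peak at a gene end, a share that 11 genes cannot be told from. Their lengths ran from 65.5 to 337 kb, and their density of 17.3 Gm4665 peaks per megabase was close to the 15.6 of protein-coding genes over 100 kb. The LacZ density was 6.34 per megabase, against 4.10.

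Dnah5, an outer-arm heavy chain gene whose loss causes primary ciliary dyskinesia, held the strongest dynein peak. It ran from 28395963 to 28397385 on chromosome 15 and had folds of 56.1, 40.1 and 49.3 (mean 48.5 ± 8.003, SD, n = 3), given here and below in the order of replicates 1, 2 and 3. Within 10 kb downstream lay 2 further peaks, from 28398329 to 28399506 with folds of 23.8, 26.9 and 27.9 (mean 26.2 ± 2.13), and from 28405192 to 28405903 with 19.9, 17.7 and 18.5 (mean 18.7 ± 1.11; SD, n = 3 each). The lists shared no interval here. These 3 peaks sat 76.2% to 79.0% of the way along the annotated span. They were about 193 to 202 kb from the listed start, which itself lies 48.9 kb inside that span. Their replicate ranges did not overlap between the first and the others. Dnah5 held 7 Gm4665 peaks in all, the weakest with a mean fold of 7.12, and 2 LacZ peaks, the stronger with folds of 21.0, 8.86 and 13.3.

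Among the other outer-arm genes, Dnah11 had 4 Gm4665 peaks, and its strongest had folds of 34.1, 26.9 and 26.6 (mean 29.2 ± 4.26, SD, n = 3), 28.7 kb downstream of the start. Dnah8 and Dnah17 encode the outer-arm heavy chains used in sperm tails. Dnah8 carried 8 peaks, the most of the 11 dynein heavy chain members. Their mean folds ran from 4.85 to 12.5, and the highest peak had 15.3, 12.5 and 9.59. Dnah17 had 2 peaks, with folds of 20.5, 14.2 and 12.9 at the stronger (mean 15.9 ± 4.10, SD, n = 3), and no LacZ peak. Dnah9, an outer-arm gene of airway cilia, had 4 Gm4665 peaks, led by one of 14.7, 7.46 and 8.63, and 2 LacZ peaks, led by one of 18.3, 5.001 and 7.497. A stronger Gm4665 peak lay 2.606 kb outside the Dnah9 gene, just beyond the window, with a mean fold of 31.1 ± 3.52 (SD, n = 3).

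Inner-arm heavy chain genes held 16 Gm4665 peaks over 6 genes (15.8 per megabase), beside 25 over the 5 outer-arm genes (18.5 per megabase). Dnah3 led them with a peak of 34.1, 28.9 and 37.0 (mean 33.3 ± 4.10), followed by Dnah12 with 31.2, 23.5 and 23.1 (mean 26.0 ± 4.57; SD, n = 3 each). Dnah7a had 3 Gm4665 peaks and no LacZ peak, and its strongest had 21.0, 19.0 and 18.9 (mean 19.6 ± 1.14, SD, n = 3). Dnah7a, Dnah7b and Dnah7c are close copies, and the placing of reads that match several copies was not stated; Dnah7b and Dnah7c had 4 Gm4665 peaks each, with strongest mean folds of 38.2 and 26.4. Dnah10 had 2 peaks, led by 18.4, 14.3 and 13.03, and Dnah2 had 2, led by 11.1, 6.33 and 9.52. At Dnah10 the LacZ list held a peak of 37.8, 14.6 and 17.7 (mean 23.4 ± 12.6, SD, n = 3), and at Dnah2 one of 20.5, 8.06 and 9.34. At Dnah5, described above, the stronger LacZ peak had a mean fold of 14.4, above the 12.6 at Dnah2. The strongest LacZ peaks at Dnah3, Dnah8, Dnah9, Dnah11 and Dnah12 had lower mean folds than that at Dnah2. The strongest at Dnah3 had 18.5, 8.05 and 9.80, and that at Dnah8 had 14.4, 9.46 and 9.96. At Dnah11 it had 11.3, 9.09 and 6.39, and at Dnah12, where it lay just past the 3′ end and near Asb14, it had 17.9, 6.05 and 8.52. Dnah1, mutated in men with short, misshapen sperm tails, was the sole member with LacZ peaks and no Gm4665 peak: its 2 LacZ peaks were led by one of 27.8, 9.80 and 12.5 (mean 16.7 ± 9.70, SD, n = 3), and the nearest Gm4665 peak lay 59.0 kb away.

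**Figure D3:**
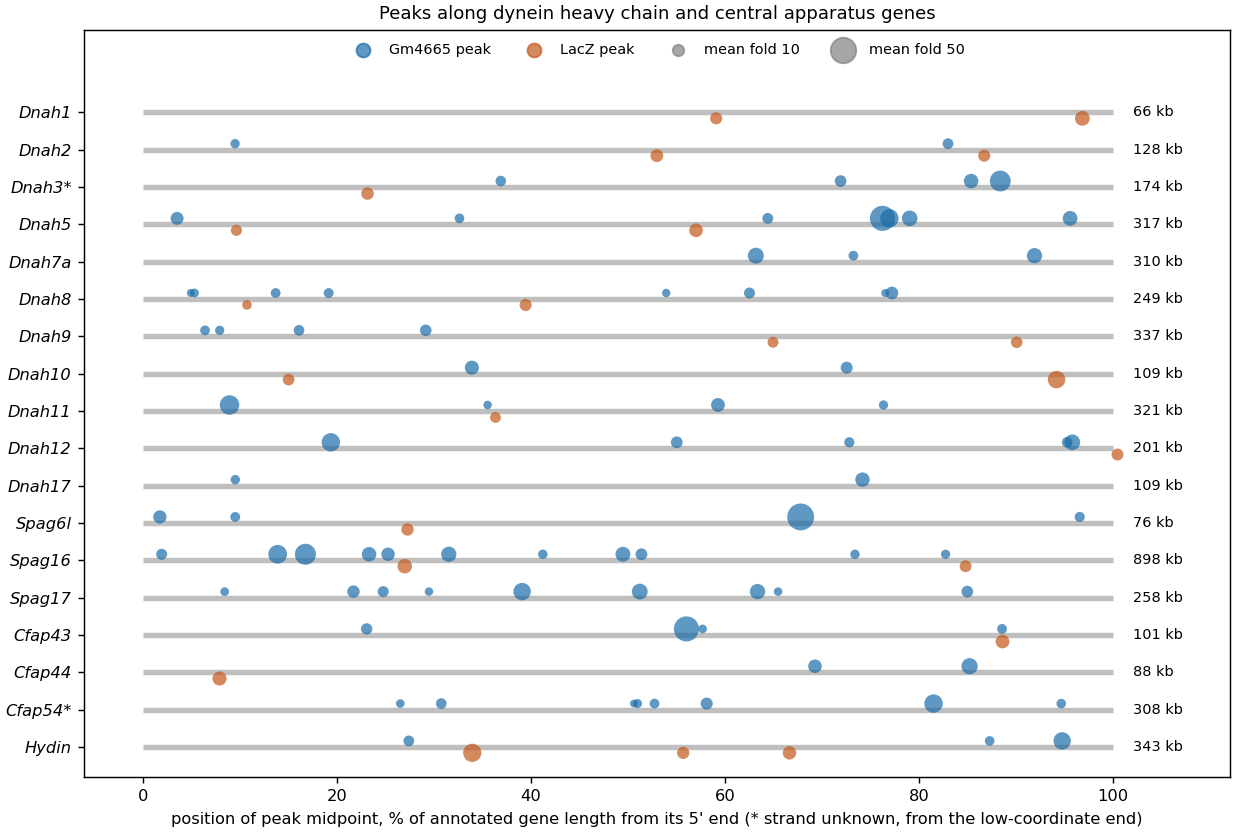
Position of every peak along the 18 dynein heavy chain and central apparatus genes, as a percentage of annotated gene length from the 5′ end (from the low-coordinate end for Dnah3 and Cfap54, marked by an asterisk); circle area is proportional to mean fold, Gm4665 peaks are drawn above each line and LacZ peaks below, and gene lengths are given at the right. Peaks are spread over the gene bodies, the largest circles are inside Spag6l, Dnah5 and Cfap43, and among these genes peaks of the lists overlap only in Cfap43, near its 3′ end.

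Dnai1 and Dnai2, listed by RefSeq as Dnaic1 and Dnaic2, encode the intermediate chains of the outer arm and together had 6 Gm4665 peaks and no LacZ peak. That is 53.1 Gm4665 peaks per megabase over 2 genes, beside 17.3 for protein-coding genes from 20 to 100 kb, the length class of both. In that class 54.1% of protein-coding genes held a Gm4665 peak and 20.5% a LacZ peak, so most held no LacZ peak. Dnai1 had 4, led by a peak from 41605801 to 41607188 on chromosome 4 with folds of 40.5, 32.6 and 36.6 (mean 36.6 ± 3.91, SD, n = 3), higher than 96.4% of the list. Dnai2 had a peak from 114719494 to 114720566 on chromosome 11 with folds of 26.4, 29.3 and 34.9 (mean 30.2 ± 4.35, SD, n = 3). That peak lay before the 5′ end of the annotated gene, also within 2 kb of the neighbouring gene Ttyh2, and its edge was 6853 bp from the listed start, which lies 6.08 kb inside the annotated span.

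Tektins are filament proteins inside the doublet microtubules. Of the 5 genes, 3 had 1 Gm4665 peak each and none had a LacZ peak. Tekt1 and Tekt2 are under 20 kb, where 19.1% of protein-coding genes held a Gm4665 peak and 6.29% a LacZ peak. The others are from 20 to 100 kb, where 54.1% and 20.5% did. Tekt3 had the strongest, at its 3′ end from 63093032 to 63094241 on chromosome 11, with folds of 34.1, 19.7 and 34.1 (mean 29.3 ± 8.33, SD, n = 3); Gm36926 also lies within 2 kb. Tekt4 had a peak of 24.1, 12.99 and 12.1 (mean 16.4 ± 6.69, SD, n = 3) and Tekt1 one of 7.26, 7.24 and 10.2. Tekt2 and Tekt5 had none, with the nearest Gm4665 peaks 2.743 and 5.155 kb outside the genes.

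The central apparatus and other axoneme-associated genes included Spag6l, whose main peak had the highest mean fold of the Gm4665 peaks at members. All 7 had at least 2 Gm4665 peaks, 41 in total, at 19.5 per megabase, and 5 had LacZ peaks, 8 in total, at 3.81 per megabase. All but Spag6l and Cfap44 are over 100 kb. Of protein-coding genes of that length, 91.4% held a Gm4665 peak, at 15.6 per megabase, and 56.8% a LacZ peak, at 4.10. Spag6l encodes a central apparatus protein needed for sperm motility. Its main peak, from 16776514 to 16778679 on chromosome 16, had folds of 61.0, 46.4 and 58.8 (mean 55.4 ± 7.87, SD, n = 3). It ranked 219 of 38711, was the widest member peak of the Gm4665 list at 2166 bp, and lay 51.8 kb inside the gene; the nearest LacZ peak, also in Spag6l, was 29.2 kb away with folds of 19.1, 7.27 and 8.69. Mice carry a related gene, Spag6, and the placing of reads that match both was not stated.

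Cfap43, which encodes a protein tethering dyneins to the doublets, had a peak from 47780194 to 47781983 on chromosome 19 with folds of 48.1, 43.9 and 53.1 (mean 48.3 ± 4.63, SD, n = 3). The replicate ranges of the leading peaks at Spag6l, Dnah5 and Cfap43 overlapped, so their order is not settled by 3 replicates, although Spag6l was first when any replicate was left out. Cfap43 also held the only place at which the lists met. A Gm4665 peak from 47747919 to 47748827 (7.70, 8.84 and 5.82; mean 7.46 ± 1.52) contained a LacZ peak from 47747990 to 47748823 (21.4, 12.7 and 9.54; mean 14.6 ± 6.16; SD, n = 3 each), 834 bp in common. This 1 of 103 peaks (0.971%) is close to the 0.889% of all Gm4665 peaks that overlap a LacZ peak. Cfap44, the partner of Cfap43, had 2 Gm4665 peaks, led by 19.4, 17.7 and 23.9, and 1 LacZ peak of 24.8, 12.2 and 8.85.

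Spag16, another central apparatus gene and the longest member, had 11 Gm4665 peaks over 898 kb, or 1.22 per 100 kb of window. The strongest had folds of 36.1, 30.6 and 35.2 (mean 34.0 ± 2.93, SD, n = 3), and its 2 LacZ peaks were led by one of 33.9, 7.65 and 6.88. Spag17, whose protein forms a central pair projection, had 9 Gm4665 peaks over 258 kb, or 3.44 per 100 kb, led by one of 26.3, 16.4 and 27.6, and no LacZ peak. Cfap54 had 8 Gm4665 peaks, led by 35.3, 18.2 and 25.2, and no LacZ peak. Hydin, of similar length at 343 kb and also a projection gene, had 3 Gm4665 peaks, led by 29.1, 18.7 and 21.8 (mean 23.2 ± 5.31), and 3 LacZ peaks, led by 42.2, 16.2 and 18.1 (mean 25.5 ± 14.5; SD, n = 3 each). Spag17 and Hydin thus lay on opposite sides of the density of genes over 100 kb in the Gm4665 list.

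Of the 4 outer dense fibre and fibrous sheath genes, 3 had Gm4665 peaks, 4 in all (34.4 per megabase), with a median mean fold of 7.11, and 1 had a LacZ peak. Odf1 is under 20 kb, where 19.1% of protein-coding genes held a Gm4665 peak and 6.29% a LacZ peak. The others are from 20 to 100 kb, where 54.1% and 20.5% did, at 17.3 Gm4665 peaks per megabase. With 4 peaks, the density of the group is an uncertain value. Akap3, which encodes an anchoring protein of the fibrous sheath, had a Gm4665 peak near its 3′ end of 14.9, 14.6 and 7.92 (mean 12.5 ± 3.95) and a LacZ peak 3.64 kb downstream of its start of 39.8, 6.82 and 11.3 (mean 19.3 ± 17.9; SD, n = 3 each). The LacZ mean rested on replicate 1, since the other replicates gave 6.82 and 11.3. Odf2 had 2 Gm4665 peaks with mean folds of 3.93 and 6.59, the former the lowest of all member peaks, and Ropn1, which encodes a fibrous sheath protein of the ropporin family, had 1 of 7.99, 6.80 and 8.09. Odf1 had none.

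The 4 CatSper genes held 4 Gm4665 peaks in 3 genes. Such a peak lay in 19.1% of protein-coding genes under 20 kb, the class of Catsper1 and Catsper4. From 20 to 100 kb, the class of Catsper2 and Catsper3, the share was 54.1%. Catsper1, Catsper2 and Catsper3, which encode pore-forming subunits, each had a Gm4665 peak within 2 kb of a gene end, as 14.2% of protein-coding genes did; in the 8.667 kb Catsper1 gene such windows take up much of the span. None of the 4 genes had a LacZ peak, which 6.29% of protein-coding genes under 20 kb and 20.5% of those from 20 to 100 kb held. The Catsper2 peak, near the 3′ end, had folds of 12.9, 6.80 and 8.64 (mean 9.46 ± 3.15), and the Catsper1 peak had 7.09, 5.61 and 8.50 (mean 7.06 ± 1.45; SD, n = 3 each). At Catsper3 the peak before the gene had 3.01, 6.85 and 4.32 (mean 4.73 ± 1.96, SD, n = 3), weaker than all but 1.11% of the list, and it also lies within 2 kb of 4930451E10Rik. All 4 CatSper peaks were below the list's median of 9.99, and Catsper4 had none.

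Genes of sperm glycolysis had no peak in either list. Gapdhs, Ldhc and Pgk2 encode sperm forms of glyceraldehyde phosphate dehydrogenase, lactate dehydrogenase and phosphoglycerate kinase. All are under 20 kb, a length at which 19.1% of protein-coding genes held a Gm4665 peak and 6.29% a LacZ peak. Also without a peak in either list were Tekt2, Tekt5, Odf1 and Catsper4, the mitochondrial capsule gene Smcp, the calcium-binding protein gene Cabs1, Ccdc42 of the head-tail coupling apparatus, Spem1 and Tcp11. These 12 genes had a median length of 9.22 kb, and Tekt5 was the longest at 37.5 kb.

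Of the 8 genes of tail assembly, the manchette and other functions, 3 had a Gm4665 peak and 1 a LacZ peak, the strongest at any member. All but Ift88 and Hook1 are under 20 kb, where 19.1% of protein-coding genes held a Gm4665 peak and 6.29% a LacZ peak. From 20 to 100 kb, the class of Ift88 and Hook1, 54.1% and 20.5% did. Ift88, which encodes a subunit of the transport trains that build cilia and flagella, had a LacZ peak from 57494900 to 57497934 on chromosome 14 with folds of 99.4, 53.3 and 74.4 (mean 75.7 ± 23.1, SD, n = 3), the fifth strongest of 9448. The 2 Gm4665 peaks of Ift88 lay elsewhere in the gene, the nearer 41449 bp away, with folds of 26.9, 14.7 and 18.9 (mean 20.2 ± 6.23) and 11.02, 12.3 and 16.9 (mean 13.4 ± 3.07; SD, n = 3 each). Meig1, needed for assembling the manchette that carries tail components, had a Gm4665 peak near its 3′ end of 11.1, 7.82 and 11.1 (mean 10.01 ± 1.90, SD, n = 3), which also lies within 2 kb of Gm39750. Hook1, which links the manchette to the nuclear envelope, had 1 of 11.3, 8.50 and 14.8.

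**Figure D4:**
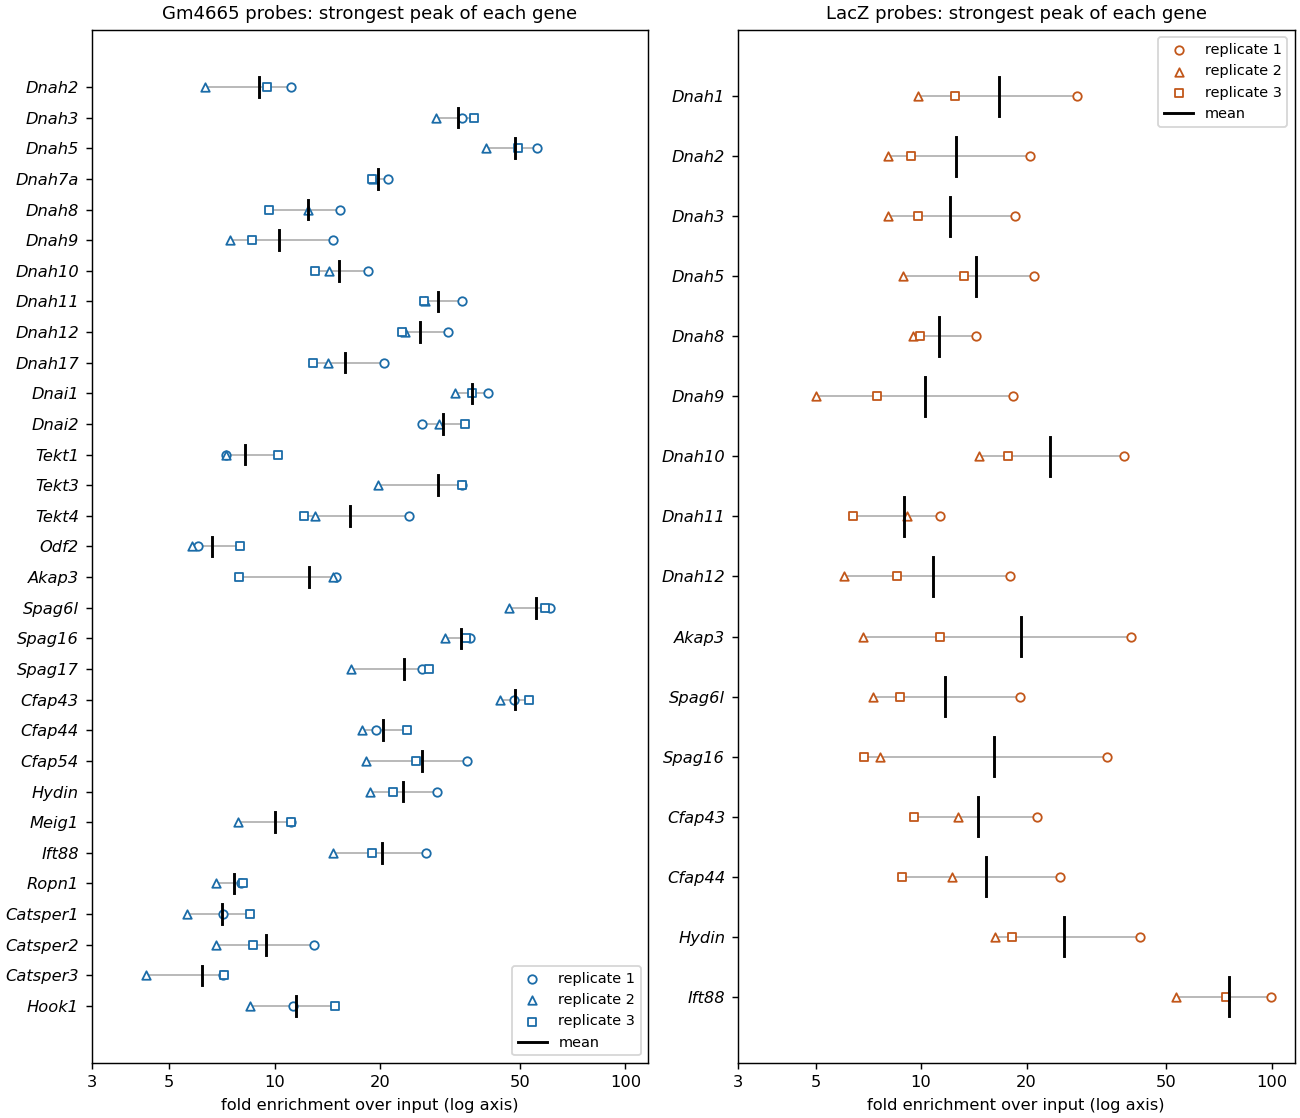
Fold over input (log axis) in replicates 1, 2 and 3 at the strongest peak of each member, with the mean as a black bar, for the 31 members with a Gm4665 peak on the left and the 16 with a LacZ peak on the right. Replicates sit close together for Spag6l, Dnah5 and Cfap43 in the Gm4665 list, and replicate 1 is the highest in all 16 genes of the LacZ panel.

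The spread between replicates differed between the lists. The SD was 23.0% of the mean for the median member peak of the Gm4665 list and 55.3% for that of the LacZ list, beside 21.9% and 54.2% over all peaks. Replicate 1 was the highest in 25 of 25 LacZ peaks at members and in 95.9% of the whole LacZ list. In the Gm4665 list it was the highest in 62 of 103 member peaks (60.2%), against 56.3% of all. By the headers, folds of both lists were taken over the same input samples, so the lists are not independent here.

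Sorted by list, 15 members held peaks of both lists (median length 174 kb), 16 of the Gm4665 list alone (38.05 kb), 1 of the LacZ list alone and 12 of neither. These categories were not counted over all genes, so they have no background. The Gm4665 list is the larger, with 38711 peaks against 9448, and 39.3% and 16.9% of protein-coding genes held a peak of each. Holding both kinds of peak did not mean sharing an interval: apart from the one at Cfap43, the 24 LacZ peaks at members lay at least 2073 bp from the nearest Gm4665 peak, with a median of 22144 bp. Thus 4% of LacZ peaks at members overlapped a Gm4665 peak, close to the 3.65% of all LacZ peaks. The distances were not computed for the whole list. Dynein heavy chain and central apparatus genes, 18 of the 44, made up 85.7% of the members' window length, 79.6% of their Gm4665 peaks and 92% of their LacZ peaks.

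Few member peaks lay at gene ends, and none covered a listed transcription start. Gm4665 peaks came within 2 kb of a gene end in 8 of 44 members (18.2%), against 12.6% of all genes and 14.2% of protein-coding genes: Dnai2, Tekt3, Akap3, Spag6l, Meig1, Catsper1, Catsper2 and Catsper3. LacZ peaks did so in 2 (4.55%), Dnah1 and Dnah12, against 4.14% and 4.78%. RefSeq promoter records gave 52 starts for 40 members, with none for Dnah3, Cfap54, Odf1 and Catsper1. Of these starts 0 were covered by a Gm4665 peak, where 1.28% of 32851 starts of all genes were, and 0 by a LacZ peak, against 0.597%. Within 2 kb of a Gm4665 peak lay 3 member starts (of Tekt4, Spag6l and Catsper3), against 8.32% of all starts, and within 2 kb of a LacZ peak 0, against 2.51%. At that background, 0 of 52 cannot be told from the share over all starts. Where the strand was known, for 90 Gm4665 peaks, 33, 23 and 32 midpoints lay in the first, middle and last part of the gene divided in 3 and 2 outside it. The median distance from the nearest listed start was 68.8 kb.

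The promoters of these 3 members are shown because their starts lie nearest to a Gm4665 peak; they were chosen after the positions had been seen. Each sequence is the RefSeq record of build GRCm38.p6, 250 bases before to 50 after the start (base 251 of 300), 5′ to 3′ on the gene's strand, and capitals mark matches to the motifs searched on both strands: the cAMP response element TGACGTCA, its shorter core TGACGT (contained in the former), the RFX core GTTGCC and the MYB core AACGG. The Tekt4 promoter is chr17:25471340-25471639 on the plus strand, the Spag6l promoter chr16:16829314-16829613 on the minus strand and the Catsper3 promoter chr13:55784329-55784628 on the plus strand.
Tekt4: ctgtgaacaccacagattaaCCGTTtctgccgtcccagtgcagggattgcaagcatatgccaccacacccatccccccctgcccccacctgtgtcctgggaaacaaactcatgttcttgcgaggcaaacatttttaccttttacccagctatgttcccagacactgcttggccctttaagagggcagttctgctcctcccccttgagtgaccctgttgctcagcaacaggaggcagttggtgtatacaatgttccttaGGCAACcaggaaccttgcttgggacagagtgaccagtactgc
Spag6l: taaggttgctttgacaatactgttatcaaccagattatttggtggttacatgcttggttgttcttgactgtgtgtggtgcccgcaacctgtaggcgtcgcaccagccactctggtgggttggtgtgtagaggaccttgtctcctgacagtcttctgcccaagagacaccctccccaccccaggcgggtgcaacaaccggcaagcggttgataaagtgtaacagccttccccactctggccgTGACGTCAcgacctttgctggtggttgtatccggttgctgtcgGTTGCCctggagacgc
Catsper3: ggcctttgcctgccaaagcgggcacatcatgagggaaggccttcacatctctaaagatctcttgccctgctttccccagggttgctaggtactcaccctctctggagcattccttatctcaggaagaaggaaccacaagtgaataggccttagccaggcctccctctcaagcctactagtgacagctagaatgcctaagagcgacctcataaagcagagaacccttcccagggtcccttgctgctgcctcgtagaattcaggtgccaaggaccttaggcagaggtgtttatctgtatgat

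The Tekt4 peak, from 25471836 to 25473144, began 246 bp past this start, inside the gene and beyond the printed window. The listed start itself lies 17.0 kb inside the annotated span of Tekt4. The promoter holds an RFX core on the opposite strand beginning at base 259 and a MYB core, also on the opposite strand, at base 21. At Spag6l the nearest peak, from 16827548 to 16828470, began 893 bp past the start in the direction of the gene, with folds of 12.9, 18.0 and 10.01 (mean 13.6 ± 4.07, SD, n = 3). Its promoter holds a full cAMP response element beginning at base 242 and an RFX core at base 285, on either side of the start. At Catsper3 the peak from 55783200 to 55783775 ended 804 bp before the start, and its promoter holds none of the 4 motifs. CREM, RFX2 and MYBL1, which bind such motifs, are known regulators of genes in spermatocytes and spermatids. A match here is a description of letters only.

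Over all 52 member promoters, 16 (30.8%), from 13 of 40 members, held the RFX core, against 12.5% of all 32851 promoters and 12.6% of protein-coding ones. The MYB core was in 19 (36.5%), from 16 members, against 17.4% and 19.1%. The full cAMP response element was in 1 (1.92%), that of Spag6l, against 1.79% and 2.23%, and its core TGACGT in 6 (11.5%) against 7.51% and 8.49%. Starts of the same gene overlap and are not independent, and no test was made. No listed member start was covered by a peak, so these shares describe the genes and not the captured intervals.

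Other genes of the sperm tail were counted in the same way. Of 79 further flagellar genes listed by function, among them radial spoke, nexin-dynein and transport genes, 77 were matched, with a median length of 38.1 kb. A Gm4665 peak lay in 47 (61.0%) and a LacZ peak in 23 (29.9%), against 39.3% and 16.9% of protein-coding genes, which are shorter (median 17.2 kb). Densities were 17.5 and 4.88 peaks per megabase, against 16.3 and 4.42 over all genes. At a gene end, 10 of the 77 had a Gm4665 peak and 7 a LacZ peak, against 14.2% and 4.78% of protein-coding genes. The median mean fold of their Gm4665 peaks was 9.77, beside 9.87 at the 44 members, and that of their LacZ peaks 13.5, beside 11.7. No difference between the sets of genes was tested. Their strongest were at Cfap58 (53.3, 46.9 and 54.7; mean 51.6 ± 4.14), Cfap65 (37.2, 55.3 and 53.8; mean 48.8 ± 10.1), Ift172 (67.0, 40.7 and 36.3; mean 48.0 ± 16.6), Adcy10, the sperm bicarbonate-sensing cyclase (50.6, 39.5 and 48.1; mean 46.0 ± 5.83), and Dnah7b (50.5, 32.3 and 31.7; mean 38.2 ± 10.7; SD, n = 3 each).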

How the data were processed

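Positions and folds come from 2 peak lists made by the authors using MACS2 (per the file names). Its version and settings, the aligner and how replicates were joined were not given in the sources used here, and the build is mm10 per the submitters' processing notes. Each value is a deposited linear ratio, the fold enrichment over input of 1 replicate, per the file headers. Input entered only as the denominator, for both lists. Coordinates are 1-based.

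Rows repeating an interval (649 Gm4665, 165 LacZ) were merged, keeping the highest value per replicate, and 116 and 25 intervals on other sequences were left out. Spans came from RefSeq (GRCm38.p6), without 340 entries starting below 3 Mb on chromosomes 1 to 19 or X; 42 members matched by symbol and 2 by synonym. A peak counted with 1 bp of overlap with the gene and 2 kb flanks. Exons, introns and peak sequences were not analysed here, since no genome was used. Members and lists were chosen with earlier results of these data known, so counts are set beside backgrounds without a test; intervals of density ratios cover counting error only. Genes were named by a rule: those with a gene-end peak, with peaks in both lists, with the strongest peak of each group or LacZ peak, with the most peaks, with no peak, and the 5 strongest other flagellar genes; remaining members are named to account for all. The rule asked for promoters with a start inside a peak; none had one, so those with a start within 2 kb of a peak were printed. Overlap code was tested on simulated data. Python 3.11.15, pandas 2.3.3 and scipy 1.17.1 were used.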

Additional observations from a re-analysis of the deposited data

How the results depend on the processing

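No paired analysis was possible because no result here comes from a test over samples. The lists hold different intervals and were normalized separately. They share replicate numbers and, by the headers, the input samples under their folds, so the lists are not independent. Of 76 alternatives for the main quantities, 12 were counted as moved and 64 were not, but some of the 64 also shifted. Members with a Gm4665 peak fell from 31 to 24 with a mean fold of at least 10. The median mean fold of LacZ peaks at members went from 11.7 to 8.03 without replicate 1. With a mean fold of at least 10, Gm4665 peaks at members fell from 103 to 51, members with a gene-end peak from 8 to 5, and the median mean fold was 16.8. With as many of the strongest Gm4665 peaks as the LacZ list holds, 17 members held 28 peaks, 2 had a gene-end peak and the median was 23.3. With 5 kb gene-end windows, 15 members had a Gm4665 and 5 a LacZ gene-end peak; with 1 kb windows, or with midpoints, 1 had a LacZ gene-end peak. These follow from fewer peaks or other windows. Among alternatives chosen after seeing the data, the density ratio of Gm4665 peaks was 1.58 for genes under 100 kb (LacZ 1.25), 1.31 without Spag16 (LacZ 1.21) and 1.17 against autosomal genes (LacZ 1.05). Without each replicate in turn, the median mean fold at members was 8.73 to 10.8 for Gm4665 and 8.03 to 14.2 for LacZ. Positions were not recomputed for fewer replicates, since a list holds 1 joint set of intervals. Depth behind single folds is unknown, so their counting error cannot be given.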

Other observations

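Among the 13 members without a Gm4665 peak in the window, the nearest Gm4665 peak lay 2.743 kb (Tekt2) to 83.4 kb (Cabs1) outside the gene, with a median of 23.2 kb, and 3 had it within 10 kb: Tekt2, Tekt5 and Ccdc42. The peak next to Tekt2 had a mean fold of 19.9 ± 5.37 and the one next to Cabs1 40.9 ± 4.85, while the one next to Spem1, 19.1 kb away, had 5.27 ± 0.640 (SD, n = 3 each).

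In both lists stronger peaks were wider. Across the 103 Gm4665 peaks at members, Spearman's rho between mean fold and width was 0.78, beside 0.81 over the whole list. Across the 25 LacZ peaks it was 0.52, beside 0.77. Peaks are not independent replicates, and fold and width come from the same libraries. The LacZ peak at Ift88 was the widest of the control list at members, 3035 bp against a median of 828 bp.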
